A study of Mus musculus with 4 samples.

Results

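Choroid plexus epithelial cells of the mouse brain were examined in 4 single-cell RNA sequencing libraries, and 1692 of the 60717 cell barcodes that passed quality limits were such cells. A barcode is the tag of 1 droplet, and a unique molecular identifier (UMI) counts 1 captured RNA molecule. A barcode passed with at least 1000 UMIs, at least 500 genes and at most 20% of UMIs from mitochondrial genes. It was counted as a choroid plexus epithelial cell when at least 5 of the 8 markers Folr1, Kl, Clic6, Calml4, Prr32, Kcnj13, Aqp1 and Otx2 had 1 UMI or more, and when C1qa, Ctss, Cldn5 and Aqp4, genes of microglia, endothelial cells and astrocytes, together had at most 3 UMIs. The cells were thus chosen by the levels of these 12 genes, which are given only as a description. Ttr was not used for the choice because it is abundant as free RNA.

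The choroid plexus is a fringe of epithelium on a vascular core that hangs into the brain ventricles. Its epithelial cells pump ions and water to make cerebrospinal fluid, carry folate, hormones and nutrients from blood to that fluid, and secrete proteins into it, foremost transthyretin (Ttr), which carries thyroid hormone. The capillaries beneath them are fenestrated, so the epithelium itself, sealed by tight junctions, forms the barrier between blood and cerebrospinal fluid and meets agents that circulate in the blood.

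The mice were males of targeted-replacement strains, in which human APOE3 or human APOE4 stands in place of the mouse Apoe gene in both copies (APOE33 and APOE44). Lipopolysaccharide (LPS), the endotoxin of Gram-negative bacteria, was given at 5 mg/kg by injection into the peritoneum, and the mice were killed 24 h later. Control mice received NaCl. The groups were ApoE4 LPS, ApoE4 NaCl, ApoE3 LPS and ApoE3 NaCl, each represented by 1 library from the glia-enriched brain suspensions of 3 mice, and nothing in the data assigns a cell to a mouse. All 4 groups carry a human APOE allele, so none has the mouse gene intact. Reads were counted on the mouse genome, which lacks the human gene, so the genotype labels could not be checked by APOE. The age of the mice was not given in the sources used here. The suspensions were prepared for glia, and how much choroid plexus each dissection took is not given.

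The ApoE4 LPS library stood apart. It held 29361 barcodes with 88460913 UMIs, of which 61.9% passed, with a median of 2311 UMIs. In the other libraries 14122 to 16078 barcodes held 73288965 to 114378032 UMIs, 92.6% to 93.7% passed, and the median was 4150 to 5954 UMIs. Passing barcodes outside the choroid plexus held 10728 UMIs of Ttr per 1000000 UMIs in ApoE4 LPS, against 4347 to 5875 in the other libraries, and the part of this in ratios that use ApoE4 LPS was not tested. Between 61 and 140 deposited barcode sequences were shared by each pair of libraries, and none of these were choroid plexus epithelial cells in both. With 1 library per group there was no replicate and no test was made. The intervals below are exact 95% intervals that cover counting error only, and mice, dissection and library cannot be told apart from genotype or treatment.

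Choroid plexus epithelial cells numbered 299 in ApoE4 LPS, 553 in ApoE4 NaCl, 373 in ApoE3 LPS and 467 in ApoE3 NaCl. They made up 1.64% of passing barcodes in ApoE4 LPS (Clopper-Pearson interval 1.46 to 1.84), against 4.23% in ApoE4 NaCl (3.89 to 4.59). They made up 2.48% in ApoE3 LPS (2.23 to 2.74), against 3.24% in ApoE3 NaCl (2.96 to 3.54). The share was lower in the LPS library of both genotypes, and the shallow barcodes of ApoE4 LPS add to the denominator there. Among barcodes of at least 2000 UMIs the share was 2.84% in ApoE4 LPS against 4.66% in ApoE4 NaCl, and 2.62% in ApoE3 LPS against 3.59% in ApoE3 NaCl. The exclusion genes also took more cells from the LPS libraries: 159 barcodes that met the marker rule were left out in ApoE4 LPS against 61 in ApoE4 NaCl, and 121 in ApoE3 LPS against 87 in ApoE3 NaCl.

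The cells themselves were of like depth. Their median was 7480 UMIs in ApoE4 LPS, 8894 in ApoE4 NaCl, 6687 in ApoE3 LPS and 8022 in ApoE3 NaCl, with a median of 1708 to 2040 genes per cell. Thinned to 2000 UMIs per cell, the median was 795.5 genes in ApoE4 LPS, 767 in ApoE4 NaCl, 756 in ApoE3 LPS and 822 in ApoE3 NaCl. Between 69 and 104 cells per library sat on the limit of 5 markers, and Ttr took a median of 29.6% to 32.1% of their UMIs. The 70 to 97 barcodes per library with 4 markers lay just outside, and Ttr took 24.3% to 34.6% of theirs. In barcodes with no marker that share was 0.0129% to 0.0461%. Exclusion-gene sums of 3 were held by 5 to 12 cells per library, and sums of 4 by 2 to 20 barcodes just outside.

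**Figure D1:**
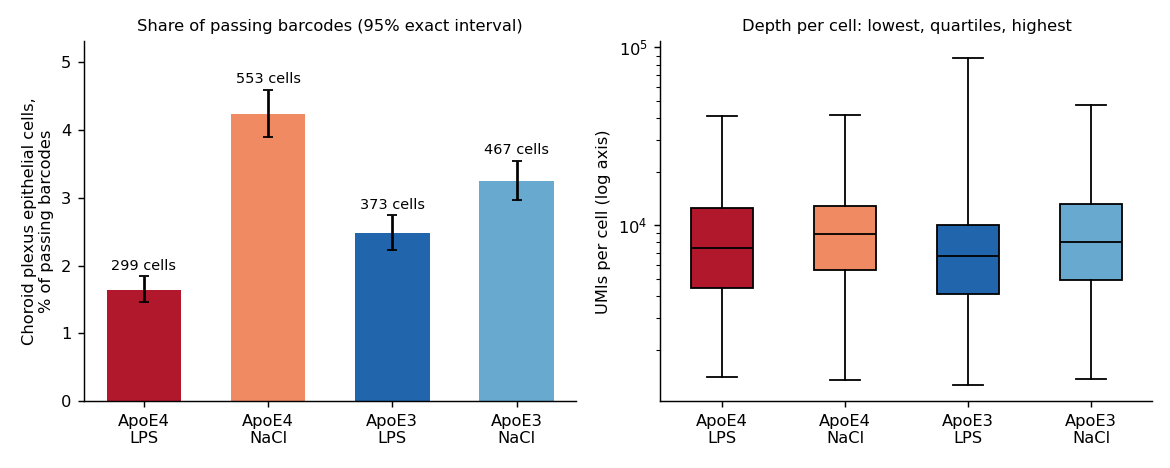
The left panel plots choroid plexus epithelial cells as a percentage of passing barcodes in each library, with exact 95% intervals as bars. The right panel plots UMIs per cell on a log axis, where boxes are quartiles with the median and whiskers reach the lowest and highest cell. The share is lower in the LPS library of each genotype (1.64% against 4.23% in ApoE4, 2.48% against 3.24% in ApoE3), while the depths per cell overlap over most of their range.

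Markers that had no part in the choice bore out the label. All 18 other choroid plexus markers were found in every library, and together they made up 302170 UMIs per 1000000 UMIs of the choroid plexus cells of a library (CPM) in ApoE4 LPS, 322700 in ApoE4 NaCl, 304220 in ApoE3 LPS and 296670 in ApoE3 NaCl. Ttr alone took a median of 30.4% of a cell's UMIs in ApoE4 LPS, 32.7% in ApoE4 NaCl, 33.4% in ApoE3 LPS and 29.8% in ApoE3 NaCl. The sum rests mainly on Ttr and Enpp2. Defining markers of other cells include the exclusion genes: C1qa and Ctss are microglial markers, Cldn5 an endothelial and Aqp4 an astrocyte marker. The choice capped these genes, so the sums for these cell types are partly set by it and are given only as a description. The 8 microglial markers summed to 169 CPM in ApoE4 LPS and 62.4 in ApoE4 NaCl, and to 142 in ApoE3 LPS and 71.1 in ApoE3 NaCl. The 8 astrocyte markers, none of them at 0, summed to 1366 CPM in ApoE4 LPS and 757 in ApoE4 NaCl, and to 1170 in ApoE3 LPS and 793 in ApoE3 NaCl. Endothelial markers summed to 99.8 to 227 CPM, fibroblast markers to 274 to 394 and oligodendrocyte markers to 751 to 1522. Most of the fibroblast sum was Igf2, with 267 CPM in ApoE4 LPS, 291 in ApoE4 NaCl, 205 in ApoE3 LPS and 355 in ApoE3 NaCl. Igf2 was at least 18.8-fold higher in choroid plexus cells than in all other passing barcodes of each library. The 8 ependymal markers summed to 334 CPM in ApoE4 LPS and 426 in ApoE4 NaCl, and to 316 in ApoE3 LPS and 395 in ApoE3 NaCl, and 52.0% to 72.5% of cells per library held at least 2 of them. Markers of border-associated macrophages summed to 1.44 to 4.87 CPM, with 2 to 4 of the 8 at 0. Astrocyte and microglial transcripts were thus higher in the LPS cells of both genotypes. Their part in the results below was not tested beyond leaving out cells with at least 2 UMIs each of 2 markers of another class. This kept 174 cells in ApoE4 LPS, 376 in ApoE4 NaCl, 266 in ApoE3 LPS and 284 in ApoE3 NaCl. That limit counts UMIs, so deep cells reach it more readily, and Igf2 is 1 of the fibroblast markers used. Choroid plexus genes shifted too, as Htr2c had 656 CPM in the kept cells of ApoE3 NaCl against 1403 in all. Folr1 went the other way, with 769 CPM against 736 there. A change on leaving cells out is thus not assigned to other cell types.

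The secretory and transport program of the epithelium was present in all 4 libraries, and its leading genes differed less than the inflammatory genes described below. Enpp2 (autotaxin), a secreted enzyme that makes lysophosphatidic acid, had 9426 CPM in ApoE4 LPS and 8915 in ApoE4 NaCl, and 9368 in ApoE3 LPS and 12259 in ApoE3 NaCl. Folr1, the folate receptor, had 788 CPM in ApoE4 LPS, 760 in ApoE4 NaCl, 782 in ApoE3 LPS and 736 in ApoE3 NaCl, within a narrow range. The anti-ageing hormone receptor Klotho (Kl) had 940 CPM in ApoE4 LPS and 810 in ApoE4 NaCl, and 763 in ApoE3 LPS and 1331 in ApoE3 NaCl, so ApoE3 NaCl stood above the other libraries. Htr2c, the serotonin receptor for which choroid plexus is known, had the same shape, with 765 CPM in ApoE4 LPS and 682 in ApoE4 NaCl, and 597 in ApoE3 LPS and 1403 in ApoE3 NaCl. Among genes of fluid secretion, the sodium-potassium-chloride cotransporter Slc12a2 had 473 CPM in ApoE4 LPS and 278 in ApoE4 NaCl, and 400 in ApoE3 LPS and 572 in ApoE3 NaCl. The water channel Aqp1 had 59.6 CPM in ApoE4 LPS and 51.9 in ApoE4 NaCl, and 51.9 in ApoE3 LPS and 89.2 in ApoE3 NaCl.

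The systemic LPS response was compared with NaCl within each genotype. A gene was measured with at least 20 UMIs in 1 of the 2 libraries, and it was counted as higher or lower at a ratio of at least 2 or at most 0.5 in CPM. In ApoE4 cells 482 of 10544 measured genes (4.57%) were higher with LPS and 283 (2.68%) were lower. In ApoE3 cells 318 of 10769 (2.95%) were higher and 527 (4.89%) were lower. Across all measured genes the median log2 ratio (of CPM + 1, here and for all medians) was 0.11 in ApoE4 and -0.16 in ApoE3. When the median ratio was set to 1, the split was 363 higher to 350 lower in ApoE4 and 415 to 339 in ApoE3, against 482 to 283 and 318 to 527 as given. With Ttr and mitochondrial genes left out of the total it was 429 to 309 in ApoE4 and 335 to 483 in ApoE3. Without the cells that held markers of another class, 253 genes were higher in ApoE4, of which 124 were among the 482. In ApoE3 103 were higher, of which 63 were among the 318. Fewer cells and UMIs were left under that setting.

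Of the 10208 genes measured in both comparisons, 140 were higher with LPS in both genotypes, which was 31.25% of those genes among them that were higher in ApoE4 and 55.3% of those higher in ApoE3. A total of 54 were lower in both, 26.1% of the ApoE4 and 13.3% of the ApoE3 genes. A further 14 were higher in ApoE4 and lower in ApoE3, 3.125% of the ApoE4 and 3.46% of the ApoE3 genes. The 18 that were lower in ApoE4 and higher in ApoE3 were 8.70% and 7.11% of these.

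**Figure D2:**
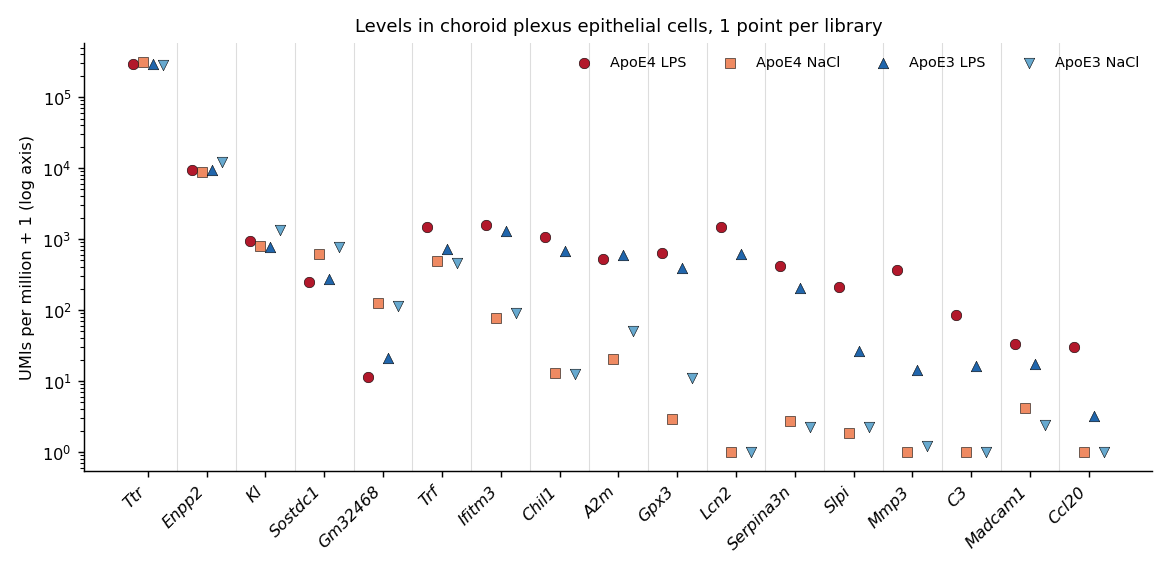
Levels of 17 genes in choroid plexus epithelial cells are plotted as CPM + 1 on a log axis, with 1 point per library. Ttr, Enpp2 and Kl lie close together, Sostdc1 and Gm32468 are lower in both LPS libraries, and the genes from Trf to Ccl20 are higher in both.

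The genes with the highest LPS ratios encode secreted proteins of the acute phase and of innate defence. Lcn2 (ENSMUSG00000026822), lipocalin-2, which withholds iron from bacteria by binding their siderophores, had 1470 CPM in ApoE4 LPS cells and 0 in ApoE4 NaCl, and 608 in ApoE3 LPS and 0 in ApoE3 NaCl. With a floor of 3 UMIs per library these are at least 2788-fold higher in ApoE4 LPS and at least 998-fold higher in ApoE3 LPS. Lcn2 was also found widely outside the choroid plexus: all other passing barcodes together had 1464 CPM in ApoE4 LPS and 950.5 in ApoE3 LPS, and oligodendrocytes, which are not known to make it, had 327 and 209 CPM in these libraries. The choroid plexus level was 11.04% of that in neutrophils in ApoE4 LPS and 5.19% of that in fibroblasts in ApoE3 LPS. Thinned to 2000 UMIs per cell, Lcn2 was found in 34.4% of choroid plexus cells in ApoE4 LPS and 25.5% in ApoE3 LPS, against 9.20% and 2.99% of oligodendrocytes and 33.5% and 7.44% of microglia. The choroid plexus level thus lay above the level in oligodendrocytes of the same library.

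Chil1 (ENSMUSG00000064246), a secreted chitinase-like protein (also called YKL-40), had 1068 CPM in ApoE4 LPS and 11.95 in ApoE4 NaCl, 89.4-fold higher (70.3 to 115). It had 681 CPM in ApoE3 LPS and 11.6 in ApoE3 NaCl, 58.8-fold higher (45.2 to 78.0). In the LPS libraries none of the 8 other classes of cells compared had more of it. Neurons were not among these classes. The level was 434% of that in neutrophils in ApoE4 LPS and 417% in ApoE3 LPS. Thinned to 2000 UMIs, Chil1 was found in 37.2% of cells in ApoE4 LPS (31.6 to 43.0) against 2.03% in ApoE4 NaCl, and in 49.7% in ApoE3 LPS (44.5 to 55.0) against 1.09% in ApoE3 NaCl, while 1.03% of oligodendrocytes held it in ApoE4 LPS and 0.269% in ApoE3 LPS. Unthinned, 52.2% of cells had a UMI in ApoE4 LPS and 72.7% in ApoE3 LPS.

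A2m (ENSMUSG00000030111), a protease-trapping plasma glycoprotein, was likewise highest in choroid plexus cells among the classes compared. It had 522 CPM in ApoE4 LPS and 19.7 in ApoE4 NaCl, 26.5-fold higher (21.9 to 32.4), and 603 in ApoE3 LPS and 50.4 in ApoE3 NaCl, 11.97-fold higher (10.5 to 13.7). Its level was 492% of that in ependymal cells in ApoE4 LPS and 691% in ApoE3 LPS. Thinned, A2m was found in 50.3% of cells in ApoE4 LPS against 3.87% in ApoE4 NaCl, and in 59.9% in ApoE3 LPS against 5.02% in ApoE3 NaCl, with 0.663% and 0.153% of oligodendrocytes in the LPS libraries.

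Gpx3, an extracellular glutathione peroxidase, had 628 CPM in ApoE4 LPS and 1.93 in ApoE4 NaCl, 325-fold higher (181 to 652). It had 395 CPM in ApoE3 LPS and 10.2 in ApoE3 NaCl, 38.9-fold higher (29.3 to 52.7), where 1 cell held 68.0% of the ApoE3 NaCl UMIs. Serpina3n, a serine protease inhibitor of the acute phase, had 422 CPM in ApoE4 LPS and 1.76 in ApoE4 NaCl, 240-fold higher (130 to 502). It had 200 CPM in ApoE3 LPS and 1.22 in ApoE3 NaCl, 164-fold higher (75.1 to 450). Lbp, which hands LPS to its receptor CD14, was already high with NaCl and less changed, with 392 CPM in ApoE4 LPS and 236 in ApoE4 NaCl, and 389 in ApoE3 LPS and 221 in ApoE3 NaCl (1.66-fold and 1.76-fold higher).

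Complement and epithelial defence genes were higher in LPS cells of both genotypes and showed wider gaps between the genotypes. C3, the central complement component, had 234 UMIs in ApoE4 LPS and 0 in ApoE4 NaCl (at least 159-fold higher), and 49 in ApoE3 LPS and 0 in ApoE3 NaCl (at least 25.4-fold), where it was at 6.196% of ependymal cells. Cfb, a protease of the alternative pathway, had 153 UMIs in ApoE4 LPS and 0 in ApoE4 NaCl (at least 104-fold), and 20 in ApoE3 LPS and 0 in ApoE3 NaCl (at least 10.4-fold), where it was at 9.70% of the highest other class, and without the cells that held markers of another class 4 UMIs were left in ApoE3 LPS. Slpi, a secreted leukocyte protease inhibitor, had 212 CPM in ApoE4 LPS and 0.879 in ApoE4 NaCl, 242-fold higher (103 to 747), and 25.6 in ApoE3 LPS and 1.22 in ApoE3 NaCl, 21.0-fold higher (9.25 to 59.0), at 16.02% and 1.82% of neutrophils in the LPS libraries. C1ra, a protease of the classical pathway, was 11.9-fold higher in ApoE4 LPS (7.78 to 18.7) and 5.71-fold higher in ApoE3 LPS (3.70 to 9.10).

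Of the complement and coagulation regulators, 7 of 9 measured genes (of 15 listed) were higher in ApoE4 (median log2 1.94) and 7 of 9 in ApoE3 (1.23), though in ApoE3 the median was 0.11 without the cells that held markers of another class and -0.07 with cells thinned to 1000 UMIs. Of the acute-phase and iron genes 8 of 18 measured (of 28 listed) were higher in ApoE4 (0.77) and 5 of 16 in ApoE3 (0.39), with none lower. Ceruloplasmin (Cp), a copper ferroxidase, had 44.9 CPM in ApoE4 LPS and 3.52 in ApoE4 NaCl, and 13.3 in ApoE3 LPS and 1.83 in ApoE3 NaCl, at 5.81% and 1.26% of fibroblasts in the LPS libraries. Trf, transferrin, had 1466 CPM in ApoE4 LPS and 493 in ApoE4 NaCl, 2.97-fold higher (2.83 to 3.12), and 725 in ApoE3 LPS and 465 in ApoE3 NaCl, 1.56-fold higher (1.47 to 1.65). Without the cells that held markers of another class, the Trf ratio was 3.84 in ApoE4 and 2.10 in ApoE3, where it then passed 2-fold. Oligodendrocytes also make Trf. The sum of their markers was 867 CPM in ApoE4 LPS and 1522 in ApoE4 NaCl, and 751 in ApoE3 LPS and 1045 in ApoE3 NaCl. The part of oligodendrocyte transcripts in the Trf levels was not tested. The heavy ferritin chain Fth1 had 6154 CPM in ApoE4 LPS and 4116 in ApoE4 NaCl, and 5340 in ApoE3 LPS and 3762 in ApoE3 NaCl.

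Other transcripts that were high in the LPS libraries need their level in other cells beside them. Saa3, an acute-phase serum amyloid, had 501 CPM in ApoE4 LPS and 22.1 in ApoE3 LPS and no UMI in either NaCl library. Oligodendrocytes had 448 CPM of Saa3 in ApoE4 LPS and 107 in ApoE3 LPS, and border-associated macrophages had 24870 and 38940. The choroid plexus level was thus close to that of oligodendrocytes in ApoE4 LPS and below it in ApoE3 LPS. Whether choroid plexus cells express Saa3 was not tested. Apod, a lipid carrier of oligodendrocytes and fibroblasts, had 1154 CPM in ApoE4 LPS and 137 in ApoE4 NaCl, and 608 in ApoE3 LPS and 77.2 in ApoE3 NaCl, at 7.23% and 4.18% of oligodendrocytes in the LPS libraries. Without the cells that held markers of another class, Apod had 62.5 CPM in ApoE4 LPS and 7.03 in ApoE4 NaCl, and 64.5 in ApoE3 LPS and 8.19 in ApoE3 NaCl, so most of its level rested on those cells.

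Type I interferon genes had more members higher than any other of the 26 lists. Of 34 listed, 20 were measured in ApoE4, and 18 of these were higher with LPS and none lower (median log2 1.97), and in ApoE3 11 of 19 were (1.40). Ifitm3, a membrane protein that blocks virus entry, had 1592 CPM in ApoE4 LPS and 76.3 in ApoE4 NaCl, 20.9-fold higher (18.9 to 23.1), and 1292 in ApoE3 LPS and 89.0 in ApoE3 NaCl, 14.5-fold higher (13.2 to 16.1). Thinned to 2000 UMIs it was found in 66.7% of cells in ApoE4 LPS against 14.7% in ApoE4 NaCl, and in 67.9% in ApoE3 LPS against 16.2% in ApoE3 NaCl, while 8.76% of oligodendrocytes held it in ApoE4 LPS and 4.99% in ApoE3 LPS. Ifi27l2a was 13.3-fold higher in ApoE4 LPS (11.5 to 15.5) and 11.1-fold higher in ApoE3 LPS (9.56 to 12.9), at 10.1% and 7.70% of border-associated macrophages. Bst2, tetherin, which holds budding viruses at the cell surface, was 3.38-fold higher in ApoE4 LPS (3.07 to 3.72) and 3.11-fold in ApoE3 LPS (2.79 to 3.48).

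Several interferon genes were low in number and parted by genotype. Irf7, the transcription factor that amplifies interferon production, had 38.4 CPM in ApoE4 LPS and 1.05 in ApoE4 NaCl, 36.4-fold higher (16.2 to 101), and 15.8 in ApoE3 LPS and 3.66 in ApoE3 NaCl, 4.33-fold higher (2.48 to 7.88). The Irf7 ratio without the cells that held markers of another class was 64.4 in ApoE4 (50 and 2 UMIs) and 1.86 in ApoE3 (19 and 12 UMIs), so ApoE3 no longer passed 2-fold. Isg15, a ubiquitin-like modifier, had 23.3 CPM in ApoE4 LPS and 0.527 in ApoE4 NaCl, and 14.6 in ApoE3 LPS and 1.62 in ApoE3 NaCl, at 5.69% and 2.55% of fibroblasts in the LPS libraries. Ifit1, which binds viral RNA, ran the other way between genotypes, with 13.3 CPM in ApoE4 LPS and 24.99 in ApoE3 LPS, at 4.46% and 10.1% of fibroblasts. Of the interferon-inducible GTPases, which attack membranes around microbes, 6 of 7 measured (of 16 listed) were higher in ApoE4 (median log2 2.32) and 2 of 4 in ApoE3 (0.95, and 0.30 without the cells that held markers of another class). Gbp3 had 33.4 CPM in ApoE4 LPS and 0.527 in ApoE4 NaCl, 63.3-fold higher (21.0 to 312), and 10.8 in ApoE3 LPS and 2.44 in ApoE3 NaCl, 4.41-fold higher (2.23 to 9.36).

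Genes of MHC class I presentation, by which cells display peptides to cytotoxic T cells, were higher in 9 of 14 measured members (of 20 listed) in ApoE4 (median log2 1.61) and in 7 of 13 in ApoE3 (1.03). B2m, the invariant light chain, had 311 CPM in ApoE4 LPS and 89.5 in ApoE4 NaCl, 3.47-fold higher (3.11 to 3.88), and 243 in ApoE3 LPS and 79.8 in ApoE3 NaCl, 3.05-fold higher (2.70 to 3.45). The heavy chain H2-K1 was 4.64-fold higher in ApoE4 LPS (3.98 to 5.42) and 3.39-fold in ApoE3 LPS (2.93 to 3.92). H2-D1 was 6.67-fold higher in ApoE4 LPS (5.44 to 8.23) and 4.89-fold in ApoE3 LPS (3.90 to 6.17), at 7.501% and 5.52% of neutrophils. Tapbp, the chaperone that loads peptides, had 122 CPM in ApoE4 LPS and 29.4 in ApoE4 NaCl, and 97.1 in ApoE3 LPS and 39.8 in ApoE3 NaCl. The immunoproteasome subunit Psmb8 was 19.6-fold higher in ApoE4 LPS (10.8 to 39.0) and 4.77-fold in ApoE3 LPS (2.71 to 8.79), at 18.7% and 7.61% of another class.

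Adhesion molecules and chemokines that recruit leukocytes were mixed, and the named genes that passed 2-fold were low with NaCl. Madcam1 (ENSMUSG00000020310), the ligand of the gut-homing integrin on lymphocytes, was highest in choroid plexus cells among the classes compared. It had 90 UMIs in ApoE4 LPS and 18 in ApoE4 NaCl, 10.2-fold higher in CPM (6.11 to 18.0), and 52 in ApoE3 LPS and 7 in ApoE3 NaCl, 11.6-fold higher (5.24 to 30.2). Glycam1, a mucin-like ligand of L-selectin, had 29 UMIs in ApoE4 LPS and 1 in ApoE4 NaCl, and 59 in ApoE3 LPS and 1 in ApoE3 NaCl, so its ratios of 59.2 (9.82 to 2418) and 91.9 (15.9 to 3691) rest on a single UMI each. Ccl20, the chemokine of CCR6-bearing lymphocytes, had 81 UMIs in ApoE4 LPS and 0 in ApoE4 NaCl, at least 55.1-fold higher, and 7 in ApoE3 LPS and 0 in ApoE3 NaCl, while no other class had more than 0.317 CPM in ApoE4 LPS. Icam1, a ligand of leukocyte integrins, was 5.56-fold higher in ApoE4 LPS (3.18 to 10.1) and 2.80-fold in ApoE3 LPS (1.58 to 5.11, at 4.46% of another class). Vcam1 was abundant with NaCl and changed less, with 245 CPM in ApoE4 LPS and 162 in ApoE4 NaCl, and 213 in ApoE3 LPS and 165 in ApoE3 NaCl. Of the chemokines and cytokines as a list, 7 of 13 measured (of 29 listed) were higher in ApoE4 (median log2 0.97) and 3 of 10 in ApoE3, where 3 were lower (-0.14).

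The 250 bases before the transcription start are shown for 5 of these genes, from the defence, adhesion, chemokine, interferon and MHC groups. They were higher with LPS in both genotypes, except that Ccl20, with 7 UMIs in ApoE3 LPS, was not measured in ApoE3. Each of the 5 holds a match to a motif, so they do not show how common a match is. They are RefSeq sequences of build GRCm38.p6 and read 5′ to 3′ on the strand of the gene. Capitals mark matches to the NF-kB motif (GGGA, any 4 bases, CC) or to the interferon-stimulated response element motif (GAAA, any 2 bases, GAAA), searched on both strands. The regions are chr1:134181906-134182155 (+) for Chil1, chr10:79664309-79664558 (+) for Madcam1, chr1:83116516-83116765 (+) for Ccl20, chr4:156200819-156201068 (-) for Isg15 and chr2:122147437-122147686 (+) for B2m.
Chil1: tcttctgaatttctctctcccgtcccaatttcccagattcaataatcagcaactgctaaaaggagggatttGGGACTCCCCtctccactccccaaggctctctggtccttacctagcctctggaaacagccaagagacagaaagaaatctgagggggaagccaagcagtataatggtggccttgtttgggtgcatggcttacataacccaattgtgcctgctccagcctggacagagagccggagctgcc
Madcam1: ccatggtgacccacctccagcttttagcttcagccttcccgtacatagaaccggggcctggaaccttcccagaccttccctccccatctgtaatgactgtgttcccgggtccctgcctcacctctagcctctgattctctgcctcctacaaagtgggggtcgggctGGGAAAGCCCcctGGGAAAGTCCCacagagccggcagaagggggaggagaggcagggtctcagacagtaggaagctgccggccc
Ccl20: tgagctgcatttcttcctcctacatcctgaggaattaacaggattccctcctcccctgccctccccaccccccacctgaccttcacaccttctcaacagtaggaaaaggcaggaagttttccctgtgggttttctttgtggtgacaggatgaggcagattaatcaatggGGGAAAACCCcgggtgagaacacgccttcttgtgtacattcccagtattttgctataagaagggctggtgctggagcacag
Isg15: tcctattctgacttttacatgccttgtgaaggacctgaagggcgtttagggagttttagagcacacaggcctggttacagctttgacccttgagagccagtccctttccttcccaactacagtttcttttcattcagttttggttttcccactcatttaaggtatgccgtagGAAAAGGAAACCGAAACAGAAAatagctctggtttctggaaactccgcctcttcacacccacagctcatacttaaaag
B2m: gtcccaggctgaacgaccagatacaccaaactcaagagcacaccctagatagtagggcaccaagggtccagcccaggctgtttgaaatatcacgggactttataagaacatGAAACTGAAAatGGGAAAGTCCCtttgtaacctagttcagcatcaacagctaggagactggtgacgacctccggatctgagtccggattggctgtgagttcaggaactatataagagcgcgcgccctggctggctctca

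Chil1 held an NF-kB match 179 to 170 bases before the start, and Ccl20 held 1 at 81 to 72. Madcam1 held matches at 84 to 75 and 71 to 62, with another on the opposite strand at 70 to 61 that overlaps the second. Isg15 held 3 overlapping interferon-element matches, at 78 to 69, 72 to 63 and 66 to 57. B2m held both motifs side by side, the interferon element at 139 to 130 and the NF-kB motif at 127 to 118, with its overlapping match on the opposite strand at 126 to 117. The interferon motif was in 2.98% of all 32851 promoter windows, and in 6 of 16 type I interferon genes (37.5%), 3 of 12 MHC class I genes and 0 of 18 ion transport genes. The NF-kB motif was in 17.6% of all windows and 25.6% of measured genes, and in 4 of 15 acute-phase genes, 5 of 12 MHC class I genes and 9 of 18 ion transport genes. A match is a description of the letters, not a binding site or a cause, and a window without one says nothing of the factor.

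Among feedback regulators and glucocorticoid-responsive genes, some passed 2-fold and others did not. Nfkbia, the inhibitor that NF-kB induces against itself, was 4.08-fold higher in ApoE4 LPS (3.20 to 5.24) while its ratio of 1.54 in ApoE3 did not pass 2-fold, at 7.75% and 3.601% of microglia in the LPS libraries. Socs3, a brake on cytokine receptors, had 24.4 CPM in ApoE4 LPS and 2.46 in ApoE4 NaCl, and 6.96 in ApoE3 LPS and 2.64 in ApoE3 NaCl, at 5.58% and 1.38% of another class. The NF-kB list as a whole had 2 of 9 measured genes higher in ApoE4 (median log2 0.44, against 0.11 for all genes) and 0 of 9 in ApoE3, and the list of LPS-sensing genes, among them receptors and adaptors, had 0 of 7 past 2-fold in either genotype. Among genes regulated by glucocorticoids, 11 of 19 measured were higher in ApoE4 (1.09) and 9 of 19 in ApoE3 (0.81, and 0.04 without the cells that held markers of another class). Fkbp5, a co-chaperone that dampens the glucocorticoid receptor, was 11.9-fold higher in ApoE4 LPS (7.06 to 21.2) and 10.4-fold in ApoE3 LPS (6.13 to 18.9), at 5.04% and 5.06% of fibroblasts. The Fkbp5 ratio without the cells that held markers of another class rested on few UMIs. It was 4.72 in ApoE4 (11 and 6 UMIs) and 8.83 in ApoE3 (15 and 2 UMIs). Cdkn1a, the cell-cycle inhibitor p21, was 10.9-fold higher in ApoE4 LPS (7.99 to 15.1) and 6.26-fold in ApoE3 LPS (4.60 to 8.66), at 5.80% and 4.28% of another class. The Cdkn1a ratio without the cells that held markers of another class was 1.78 in ApoE4, no longer past 2-fold, and 2.48 in ApoE3. Sgk1, a kinase that regulates sodium channels, had 324 CPM in ApoE4 LPS against 217 in ApoE4 NaCl, and was near equal in ApoE3, with 310 CPM in ApoE3 LPS and 344 in ApoE3 NaCl.

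Stress genes are given for each genotype side by side, and the difference between the genotypes was not tested. Hspa5 (BiP), the main chaperone of the endoplasmic reticulum, had 505 CPM in ApoE4 LPS and 223 in ApoE4 NaCl, 2.27-fold higher (2.10 to 2.45), and 434 in ApoE3 LPS and 259 in ApoE3 NaCl, 1.67-fold higher (1.55 to 1.81). Calreticulin (Calr) had 418 CPM in ApoE4 LPS and 190 in ApoE4 NaCl, and 309 in ApoE3 LPS and 285 in ApoE3 NaCl. Of the unfolded protein response genes, 4 of 15 were higher in ApoE4 (median log2 0.69, against 0.11 for all genes) and 0 of 15 in ApoE3 (0.04, against -0.16 for all genes). The ratio of Manf, a secreted stress factor, was 2.09 in ApoE4 and 1.73 in ApoE3, and 2.13 and 2.19 in these genotypes without the cells that held markers of another class. The metal-binding Mt2 had 268 CPM in ApoE4 LPS and 34.6 in ApoE4 NaCl, and 85.7 in ApoE3 LPS and 55.4 in ApoE3 NaCl, at 6.56% and 5.99% of another class in the LPS libraries. Without the cells that held markers of another class, Mt2 had 65.8 CPM in ApoE4 LPS and 14.4 in ApoE4 NaCl, and 27.1 in ApoE3 LPS and 35.3 in ApoE3 NaCl, so the ApoE3 ratio turned to lower. Immediate-early genes (9 of 13 measured higher and 2 lower in ApoE4, 3 of 15 higher in ApoE3) also depended on those cells: Egr1 was 3.41-fold higher in ApoE4 LPS and 2.24-fold in ApoE3 LPS with all cells (at 5.77% and 4.88% of fibroblasts), and its ratios were 0.772 and 0.294 without them. Of the metallothionein and redox genes 4 of 18 were higher and 1 lower in ApoE4 (0.32), and 1 of 18 was higher in ApoE3 (0.12). Of the matrix proteases and their inhibitors 3 of 9 were higher in ApoE4 (0.54) and 1 of 9 in ApoE3 (-0.24), with 1 lower in each.

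**Figure D3:**
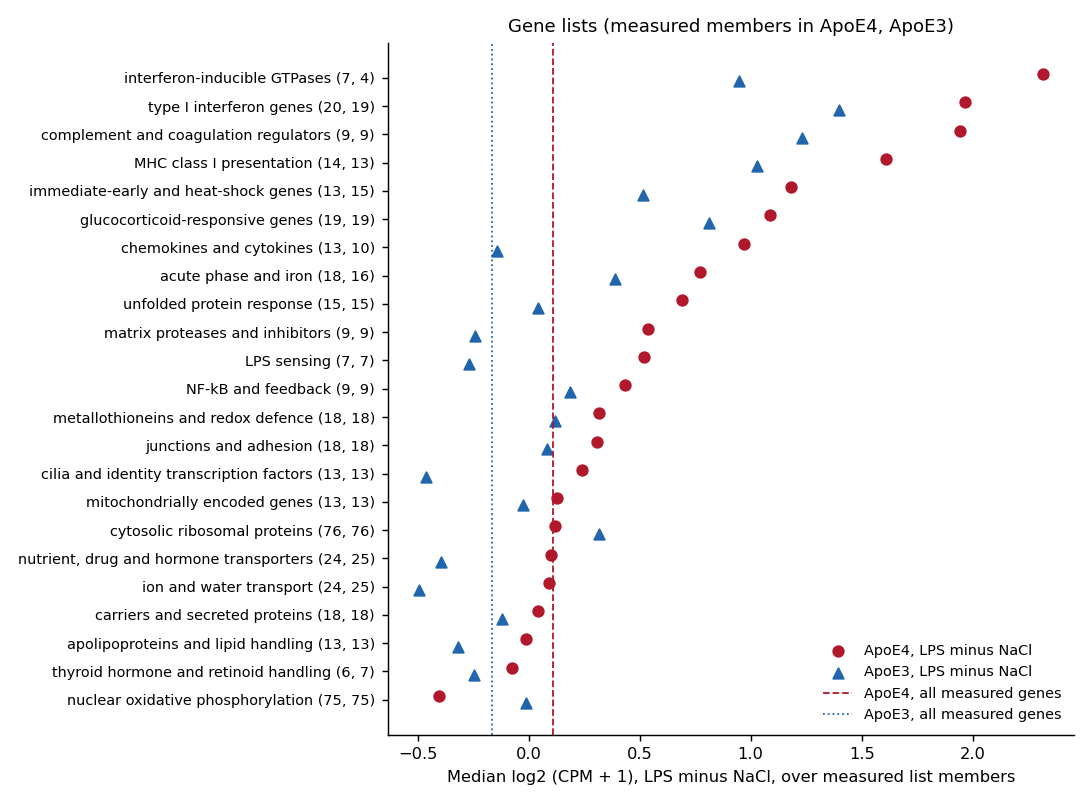
The median log2 difference (CPM + 1, LPS minus NaCl) over the measured members of 23 gene lists is plotted for ApoE4 (circles) and ApoE3 (triangles), with the number of measured members in brackets and the medians of all measured genes as vertical lines (0.11 and -0.16). Interferon, complement and MHC class I lists lie farthest to the right, at 1.61 or more in ApoE4 and 0.95 or more in ApoE3, and ion transport, carrier and mitochondrial lists lie within 0.5 of 0.

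Some genes were highest in choroid plexus cells among the classes compared, in both LPS libraries, and higher with LPS in both genotypes. Beside Chil1, A2m, Madcam1 and Glycam1 these were Ehf, Pcsk2, Polr3k, Brca2, Ldhd, Chrnb4, Sult1c2 and Cltrn, which were picked out after their values were seen. Neurons were not a class, so levels in neurons were not compared. Pcsk2, a protease that matures prohormones, had 188 CPM in ApoE4 LPS and 36.2 in ApoE4 NaCl, 5.19-fold higher (4.41 to 6.13), and 183 in ApoE3 LPS and 48.9 in ApoE3 NaCl, 3.75-fold higher (3.22 to 4.38). Cltrn (collectrin), which carries amino acid transporters to the cell surface in kidney, was 3.52-fold higher in ApoE4 LPS (2.71 to 4.59) and 3.36-fold in ApoE3 LPS (2.62 to 4.34). Ldhd, the dehydrogenase of D-lactate, was 10.6-fold higher in ApoE4 LPS (6.06 to 19.9) and 9.09-fold in ApoE3 LPS (4.89 to 18.4). The ApoE3 ratio without the cells that held markers of another class was 1.44 for Brca2 and 1.86 for Sult1c2, below 2-fold. Ehf, a transcription factor of epithelia, was low, with 20 UMIs in ApoE4 LPS and 13 in ApoE4 NaCl, and 36 in ApoE3 LPS and 19 in ApoE3 NaCl.

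Genes lower with LPS in both genotypes included abundant choroid plexus transcripts. Sostdc1 (ENSMUSG00000036169), a secreted antagonist of BMP and Wnt signals, had 249 CPM in ApoE4 LPS and 612 in ApoE4 NaCl, 2.45-fold lower (2.26 to 2.67). It had 272 CPM in ApoE3 LPS and 761 in ApoE3 NaCl, 2.80-fold lower (2.60 to 3.02). The median cell had 1.51 UMIs of Sostdc1 per 10000 in ApoE4 LPS against 4.94 in ApoE4 NaCl, and 1.95 in ApoE3 LPS against 5.18 in ApoE3 NaCl, so the difference was seen in the middle of the population. Gm32468 (ENSMUSG00000111013), a predicted gene, had 10.4 CPM in ApoE4 LPS and 123 in ApoE4 NaCl, 11.8-fold lower (8.14 to 17.7), and 20.2 in ApoE3 LPS and 112 in ApoE3 NaCl, 5.54-fold lower (4.27 to 7.29). Sostdc1 kept this direction without the cells that held markers of another class, with 247 CPM in ApoE4 LPS against 545 in ApoE4 NaCl and 259 in ApoE3 LPS against 578 in ApoE3 NaCl. Defb11, a beta-defensin, was 2.46-fold lower in ApoE4 LPS (2.12 to 2.85) and 2.25-fold in ApoE3 LPS (1.91 to 2.65).

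Cox7a1, a subunit of cytochrome oxidase, had 66.8 CPM in ApoE4 LPS and 184 in ApoE4 NaCl, 2.75-fold lower (2.36 to 3.24), and 59.2 in ApoE3 LPS and 121 in ApoE3 NaCl, 2.04-fold lower (1.73 to 2.42). The other nuclear genes of oxidative phosphorylation differed less. In ApoE4 1 of 75 measured was past 2-fold, and the median log2 ratio was -0.41, against 0.11 for all genes. In ApoE3 1 of 75 was past 2-fold, with a median of -0.01 against -0.16 for all genes. Atp5g1, a proton-channel subunit of ATP synthase, had 1671 CPM in ApoE4 LPS and 3093 in ApoE4 NaCl, 1.85-fold lower, and 1794 in ApoE3 LPS and 2471 in ApoE3 NaCl, 1.38-fold lower. The mitochondrially encoded genes had medians of 0.13 in ApoE4 and -0.02 in ApoE3.

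Transport genes were near the middle of all genes in ApoE4 and below it in ApoE3. Of the ion and water transport genes, 2 of 24 were higher and 0 lower in ApoE4 (median log2 0.09), and 1 of 25 was higher and 2 lower in ApoE3 (-0.49, and -0.32 with the median ratio set to 1). Of the junction and adhesion genes, 3 of 18 were higher in each genotype. Slc6a20a, a proline transporter, differed between the comparisons, with 125 CPM in ApoE4 LPS and 22.2 in ApoE4 NaCl, 5.64-fold higher (4.59 to 6.97), and 52.8 in ApoE3 LPS and 48.5 in ApoE3 NaCl, 1.09-fold higher. Slc29a4, a transporter of monoamines, had 57.4 CPM in ApoE4 LPS and 83.0 in ApoE4 NaCl, and 45.2 in ApoE3 LPS and 109 in ApoE3 NaCl, 2.41-fold lower in ApoE3 (1.997 to 2.91). The iron reductase relative Steap1 had 134 CPM in ApoE4 LPS and 151 in ApoE4 NaCl, and 75.6 in ApoE3 LPS and 161 in ApoE3 NaCl, 2.13-fold lower in ApoE3 (1.84 to 2.47), where its ratio was 0.560 without the cells that held markers of another class. The plasma-membrane calcium pump Atp2b3 had 92.2 CPM in ApoE4 LPS and 89.5 in ApoE4 NaCl, and 83.5 in ApoE3 LPS and 174 in ApoE3 NaCl, so ApoE3 NaCl was the library that stood out. Of the apolipoproteins and lipid genes 1 of 13 was higher in ApoE4, and 1 higher and 3 lower in ApoE3, and of the thyroid hormone and retinoid genes 0 of 6 differed in ApoE4 and 1 of 7 was higher in ApoE3. Of the carriers and secreted proteins, 2 of 18 were higher and 1 lower in ApoE4, and 1 higher and 3 lower in ApoE3. Of the 14 Hox genes, none was measured. Of the telencephalic positional genes 4 were measured, with 0 higher and 1 lower in ApoE4 (median log2 -0.26) and 0 past 2-fold in ApoE3 (-0.23). Only 1 of the 4 had a log2 ratio above 0 in ApoE4, which was Six3. Six3 had 64.2 CPM in ApoE4 LPS and 37.8 in ApoE4 NaCl, and 47.8 in ApoE3 LPS and 64.0 in ApoE3 NaCl.

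**Figure D4:**
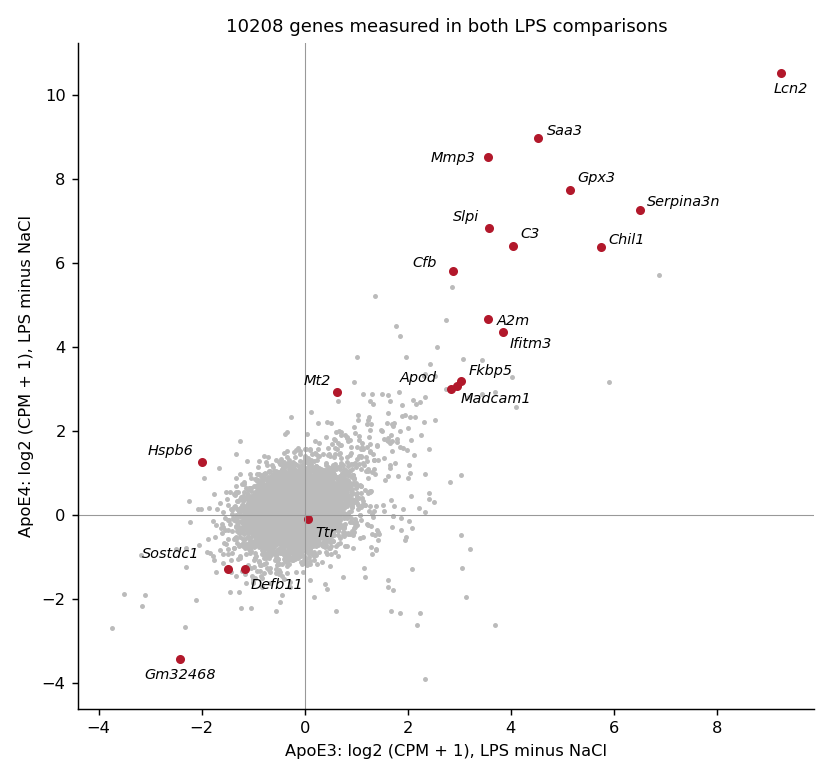
Each of the 10208 genes measured in both comparisons is a point, with the log2 difference (CPM + 1, LPS minus NaCl) in ApoE3 on the x axis and in ApoE4 on the y axis. Lcn2, Chil1, Serpina3n and Gpx3 lie far out in both genotypes, Gm32468 and Sostdc1 lie low in both, Mt2 lies high on the ApoE4 axis, and Hspb6 is higher in ApoE4 and lower in ApoE3.

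After LPS, ApoE4 cells were set against ApoE3 cells. A total of 166 of 9508 measured genes (1.75%) were higher in ApoE4 LPS and 252 (2.65%) were lower, with a median log2 ratio of -0.01. Genes of epithelial defence were among those with the highest ratios. Mmp3, a matrix protease known as stromelysin, had 367 CPM (1023 UMIs) in ApoE4 LPS and 13.3 (42 UMIs) in ApoE3 LPS, 27.6-fold higher (20.3 to 38.6), with no UMI in ApoE4 NaCl and 1 in ApoE3 NaCl. Thinned to 2000 UMIs, Mmp3 was found in 19.8% of ApoE4 LPS cells and 2.47% of ApoE3 LPS cells, against 0.295% and 0.0767% of oligodendrocytes, and its ApoE4 LPS level was 242% of that in fibroblasts. Slpi was 8.29-fold higher in ApoE4 LPS (6.56 to 10.6), Cfb 8.68-fold and C3 5.42-fold (3.97 to 7.53). Ccl20 was 13.1-fold higher (6.09 to 33.7), with 81 UMIs in 28 cells of ApoE4 LPS and 7 UMIs in 5 cells of ApoE3 LPS. Mmp3, Slpi, Cfb and C3 were also higher with LPS within each genotype, in comparisons that share these libraries, and Ccl20 reached the limit of 20 UMIs in ApoE4 LPS alone.

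Other acute-phase genes differed less between the LPS libraries. Lcn2 was 2.42-fold higher in ApoE4 LPS (2.29 to 2.55), Serpina3n 2.11-fold, Gpx3 1.59-fold and Chil1 1.57-fold (1.48 to 1.66), while A2m was 1.15-fold lower. Mmp12, a macrophage elastase, had 52 UMIs in 10 cells of ApoE4 LPS and 0 in the other libraries, at least 19.7-fold higher than in ApoE3 LPS. Hspb6, a small heat-shock protein, had 68.2 CPM in ApoE4 LPS and 6.33 in ApoE3 LPS, 10.8-fold higher (6.79 to 18.0), and 28.1 in ApoE4 NaCl and 28.2 in ApoE3 NaCl. Its ratio to NaCl was thus 2.42 in ApoE4 (1.95 to 3.01), while it was 4.46-fold lower in ApoE3 (2.78 to 7.53), and UMIs were spread over 74 cells in ApoE4 LPS and 18 in ApoE3 LPS. The Hspb6 ratio to NaCl without the cells that held markers of another class was 1.65 in ApoE4 (61 and 95 UMIs), no longer past 2-fold, and 0.281 in ApoE3 (11 and 46 UMIs). The neutrophil chemokine Cxcl1 (48 UMIs in ApoE4 LPS, 1 in ApoE3 LPS) and Cxcl10 (44 and 1) rested on few cells: 3 cells held 68.8% of Cxcl1 in ApoE4 LPS, and 1 cell held 65.9% of Cxcl10. Both were under 10% of another class, at 3.34% of border-associated macrophages for Cxcl1 and 7.78% of astrocytes for Cxcl10.

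Without LPS, ApoE4 cells had fewer genes higher than lower: 79 of 10963 (0.721%) were higher in ApoE4 NaCl and 805 (7.34%) were lower than in ApoE3 NaCl. The median of all genes was -0.29 on the log2 scale. With the median ratio set to 1 the split was 202 higher to 258 lower, and with Ttr and mitochondrial genes left out of the total it was 93 to 626, so the split depended on the scaling. Among the genes past 2-fold lower, Slit2, an axon-guidance protein that choroid plexus releases into the fluid, had 21.3 CPM in ApoE4 NaCl and 93.4 in ApoE3 NaCl, 4.39-fold lower (3.59 to 5.41), at 2.51% of fibroblasts in ApoE4 NaCl. Grm8, a glutamate receptor, had 19.5 CPM in ApoE4 NaCl and 82.9 in ApoE3 NaCl, 4.25-fold lower (3.43 to 5.29). Htr2c was 2.06-fold lower in ApoE4 NaCl (1.98 to 2.14), Slc4a10, a sodium-bicarbonate transporter, 2.12-fold (1.997 to 2.25) and Slc12a2 2.06-fold (1.93 to 2.19). Kl, a marker of the choice and so given only as a description, was 1.64-fold lower (1.58 to 1.71) and did not pass 2-fold. Lmx1a, a transcription factor of the roof plate from which choroid plexus develops, was 2.30-fold lower (1.80 to 2.95). Without the cells that held markers of another class, the ratio of ApoE4 NaCl to ApoE3 NaCl was 0.427 for Slit2 and 0.472 for Lmx1a. It was 0.582 for Grm8, 0.567 for Htr2c, 0.567 for Slc12a2 and 0.587 for Slc4a10, so none of these was still past 2-fold. For Kl it was 0.727. In the remaining cells 399 genes were lower, of which 143 were among the 805, and the median of all genes was -0.16.

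By list, 3 of 25 ion and water transport genes, 5 of 25 nutrient and hormone transporters and 4 of 17 junction genes were past 2-fold lower in ApoE4 NaCl, beside 7.34% of all measured genes and 13.8% of the longest genes described below, with medians of -0.63, -0.54 and -0.44 beside -0.29 for all genes. Nuclear oxidative phosphorylation genes had a median of 0.34 and ribosomal protein genes one of 0.15. The genes higher in ApoE4 NaCl were mostly of low count. Asns, which makes asparagine, had 46 UMIs in ApoE4 NaCl and 5 in ApoE3 NaCl, 7.97-fold higher (3.18 to 25.7). Isoc2a, a mitochondrial protein, had 11.9 CPM in ApoE4 NaCl and 2.03 in ApoE3 NaCl, 5.89-fold higher (3.01 to 12.8), and kept the order with LPS, at 10.8 CPM in ApoE4 LPS and 3.48 in ApoE3 LPS. Gm47283 went the other way in both treatments, with 1.41 CPM in ApoE4 NaCl and 23.2 in ApoE3 NaCl, 16.5-fold lower (8.08 to 39.1), and 3.95 in ApoE4 LPS and 18.0 in ApoE3 LPS.

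The genotype difference without LPS ran with gene length. Measured genes were split into 4 groups of equal number by the span of the gene in the annotation, with limits at 11.4, 27.6 and 67.7 kb. From the shortest to the longest group the median log2 ratio of ApoE4 NaCl over ApoE3 NaCl was 0.05, -0.20, -0.39 and -0.55, and 3.39%, 5.00%, 7.19% and 13.8% of genes were past 2-fold lower. In the same libraries the 4 medians lay between -0.04 and 0.02 in microglia and endothelial cells, between 0.00 and 0.04 in astrocytes, while in oligodendrocytes they were 0.07, 0.01, -0.04 and -0.08. The longest group had 12.6% of genes past 2-fold higher in endothelial cells and 11.1% in microglia, against 2.02% to 3.75% in the shorter groups of these classes. Genes of 67.7 kb or more gave 8.76% of choroid plexus UMIs in ApoE4 NaCl and 12.8% in ApoE3 NaCl, against 10.4% in ApoE4 LPS and 10.8% in ApoE3 LPS. The LPS ratio also ran with length, with medians from the shortest to the longest group of -0.04, 0.05, 0.16 and 0.26 in ApoE4 and the opposite run in ApoE3 (-0.01, -0.15, -0.24, -0.23), and both of these use a NaCl library. In ApoE4 LPS over ApoE3 LPS the medians lay closer together (-0.00, 0.01, 0.01, -0.05), and 1.599%, 1.26%, 1.599% and 6.14% of genes were past 2-fold lower. What lies behind the relation to length was not tested.

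Within a library the response was uneven from cell to cell. In ApoE4 LPS the 10% of cells with the most UMIs of a gene held 79.1% of Lcn2 UMIs, 84.0% of Mmp3 and 92.6% of Slpi, and 63.2% of Chil1, while it held 42.8% of A2m and 26.2% of Ttr. Chil1 had a median of 0.616 UMIs per 10000 in ApoE4 LPS cells and 3.18 in ApoE3 LPS cells, while the level exceeded by 10% of cells was 35.4 in ApoE4 LPS and 16.4 in ApoE3 LPS. Its summed level was thus higher in ApoE4 LPS and its median cell higher in ApoE3 LPS. A2m was spread more evenly, with a median of 3.59 per 10000 in ApoE4 LPS and 4.15 in ApoE3 LPS, against 0 in both NaCl libraries.

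**Figure D5:**
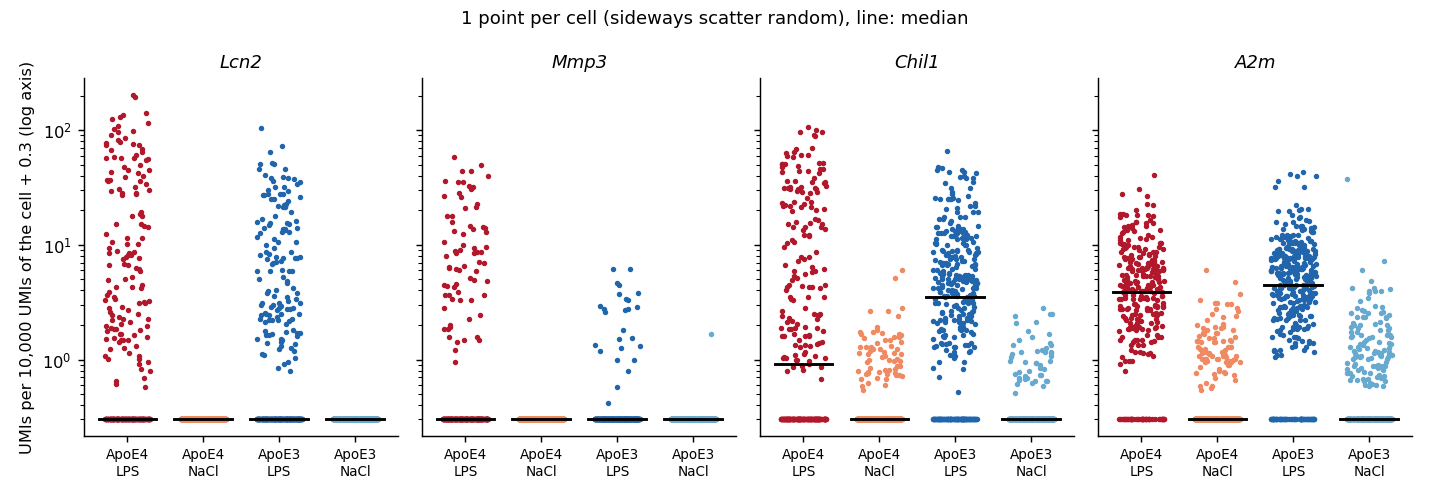
UMIs per 10000 of the cell + 0.3 are plotted on a log axis for Lcn2, Mmp3, Chil1 and A2m, with 1 point per cell and a line at the median. Lcn2 and Mmp3 are at 0 in most cells and high in some LPS cells, Chil1 spans a wider range in ApoE4 LPS than in ApoE3 LPS, and A2m is raised in most cells of both LPS libraries.

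Cells with at least 20 UMIs of Lcn2 per 10000 numbered 50 in ApoE4 LPS (16.7%) and 34 in ApoE3 LPS (9.12%), a limit set after the data were seen, and 27 and 46 cells lay between 10 and 40. They are a range of 1 gene and not a cell type. In ApoE4 LPS these cells had 3301 CPM of Chil1 against 574 in the other cells, 1095 of Mmp3 against 206, 728 of Slpi against 98.2 and 333 of C3 against 28.9. Saa3 was at 1888 CPM in these cells against 193 in the others, while in ApoE3 LPS it was at 11.4 against 23.5. The Lcn2-high cells of ApoE4 LPS had 39.6 CPM of Sostdc1 against 296, and kept Folr1 at 819 against 781 CPM. The defence genes were thus high in the same cells of that library. In ApoE3 LPS the Lcn2-high cells had 1495 CPM of Chil1 against 579 and 71.0 of C3 against 8.54, but Mmp3 was at 14.2 against 13.2 and Slpi at 31.3 against 24.9. The C3 values there rest on 25 and 24 UMIs, and 1 cell held 17.3% of the Lcn2 UMIs of ApoE3 LPS. These Lcn2-high cells also had 2330 CPM of Prg4 against 0.356, and 1 cell held 99.8% of Prg4 UMIs in that library. Astrocyte markers summed to 2621 CPM in the Lcn2-high cells of ApoE4 LPS against 1089 in the others, but not every marker followed the sum: Gja1 had 39.6 against 31.6 and Slc1a2 had 57.4 against 124. Their median depth was 8219 UMIs against 7317.

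Some genes that passed the limits owed their level to single cells, and no ratio is given for them. In ApoE3 LPS 1 cell held 99.8% of the UMIs of Prg4, 96.3% of Mgp, 95.6% of Timp1, 94.5% of S100a9, 94.7% of Reln and 100% of Msln, and in ApoE4 LPS 1 cell held 86.7% of Prg4. In ApoE4 NaCl 1 cell held 99.1% of the UMIs of Avp, the gene of vasopressin, and 71.7% of Nrgn. In ApoE3 NaCl 1 cell held 100% of Shox2, 94.1% of Zfp804b and 89.4% of Kcnc2. Smooth-muscle genes were as narrow: Acta2 had 31 UMIs in 5 cells of ApoE4 NaCl and 61 in 7 cells of ApoE3 NaCl, with 0 in the LPS libraries. Haemoglobin genes, markers of red blood cells, summed with their list to 97.98 CPM in ApoE4 LPS and 531 in ApoE4 NaCl, and to 3288 in ApoE3 LPS and 822 in ApoE3 NaCl, and 3 cells held 99.8% of Hbb-bs in ApoE3 LPS. Pllp, a myelin gene, was lower with LPS in both genotypes (3.59 CPM in ApoE4 LPS and 28.3 in ApoE4 NaCl, and 3.48 in ApoE3 LPS and 21.5 in ApoE3 NaCl) but stood at 3.06% to 4.07% of oligodendrocytes, whose markers were lower in the same cells.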

How the data were processed

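Libraries of 3' ends were prepared with 10x Genomics reagents, per the labels' protocols. The deposited matrices give counts of UMIs for every gene and barcode as whole numbers. Cell Ranger produced them, in version 7.0.1 by the file headers, and the submitters' processing notes name version 7.0 with build mm10. The limits on barcodes and the marker rule were applied here to these counts, and no cell annotation was used. No doublet caller was run. The 4 exclusion genes remove mixed barcodes only in part, and an alternative left out cells with 2 markers of another class.

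UMIs of the choroid plexus cells were summed per gene and library and divided by their total (CPM), so every ratio is relative to that total, a large part of which is Ttr. Ratios have exact conditional binomial intervals and shares Clopper-Pearson intervals, at 95%. They cover counting error only, since UMIs of 1 cell and cells of 1 mouse are not independent. Against 0 UMIs a ratio was computed with 3 UMIs in their place and is written with "at least". That is a chosen floor and not the lower end of a 95% interval. Medians of lists are of log2 of CPM + 1, and ratios carry no pseudocount. The other classes of cells were microglia, border-associated macrophages, endothelial cells, fibroblasts, astrocytes, oligodendrocytes, ependymal cells and neutrophils. Each needed at least 4 of its markers, 2 more than the next class, and at most 2 choroid plexus markers. Some classes were small, with 26 neutrophils and 29 fibroblasts in ApoE4 LPS. Neurons, oligodendrocyte precursors, pericytes, smooth muscle, and T and NK cells were not formed as classes and were not compared. Shares of cells were also taken after thinning each cell to 2000 UMIs, which left out 9 to 11 cells per library.

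The cells, the 26 gene lists and the rules were chosen with earlier results of these data known. Genes were named by rule: per comparison the 10 with the highest lower bound and the 10 with the lowest upper bound of the ratio, and in each list the 3 of highest level and the 2 farthest from a ratio of 1. Markers and other list members (Bst2, Tapbp, C1ra, Socs3, Slc12a2, Slc4a10, Atp2b3, Lmx1a, Htr2c, Steap1) were named beside these, and they, A2m, Glycam1, Defb11, Mgp and the LPS genes highest in choroid plexus cells were picked after their values were seen. Gene spans came from GENCODE vM21 and promoter sequences from RefSeq. The counting was tested on simulated data. Python 3.11.15, numpy 2.4.6, scipy 1.17.1, pandas 2.3.3 and matplotlib 3.10.9 were used.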

Additional observations from a re-analysis of the deposited data

Results flagged for a closer look

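With LPS 14 genes were past 2-fold higher in ApoE4 and lower in ApoE3, and 18 the other way round. The 14 were 3.125% of the genes higher in ApoE4, while 4.89% of all measured genes were lower in ApoE3. The 18 were 8.70% of the genes lower in ApoE4, while 2.95% of all measured genes were higher in ApoE3. Of these genes 8 are named here, with the difference between the genotypes. With 1 library per group these differences were not tested, and they are given as the log2 ratio of LPS to NaCl in ApoE4 minus that in ApoE3. It was 3.435 for Hspb6, the small heat-shock protein whose UMIs were spread over 18 to 129 cells per library, and whose ApoE4 ratio was 1.65 without the cells that held markers of another class, below 2-fold. The others were carried by few cells. The difference was -6.775 for Hbb-bt, -4.833 for Hbb-bs, -3.373 for Hba-a1 and -4.019 for Hba-a2, all genes of red blood cells, of which 3 cells of ApoE3 LPS held 98.5% to 99.8% of the UMIs. It was -7.517 for Galntl6, where 3 cells held 85.6% of the UMIs in ApoE4 NaCl and 85.0% in ApoE3 LPS, -5.959 for Sgcz, where 1 cell held 65.1% in ApoE3 LPS, and -4.905 for Nrgn, where 1 cell held 71.7% in ApoE4 NaCl.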

How the results depend on the processing

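No paired analysis was possible because each group is 1 library. The share of choroid plexus cells was 2.18%, 4.77%, 3.08% and 3.79% with 4 markers in ApoE4 LPS, ApoE4 NaCl, ApoE3 LPS and ApoE3 NaCl, 1.26%, 3.44%, 1.85% and 2.63% with 6 markers, and 2.84%, 4.66% and 3.59% among barcodes of 2000 UMIs in ApoE4 LPS, ApoE4 NaCl and ApoE3 NaCl. The LPS libraries were below their NaCl libraries under each.

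Counts past 2-fold depended on the filter, the cells that held markers of another class, the depth and the scaling. Those cells are called mixed here for short, though deep cells also meet that limit more readily. In ApoE4 LPS over NaCl the genes higher were 253 without mixed cells, 241 at 50 UMIs, 796 at 10 UMIs and 111 with cells thinned to 1000 UMIs, and the genes lower were 187, 103, 504 and 115. In ApoE3 LPS over NaCl the genes higher were 103, 160, 536 and 67 under the same settings, and the genes lower were 252 at 50 UMIs, 878 at 10 UMIs, 256 thinned, 1021 with no UMI of the exclusion genes and 339 with the median ratio set to 1. In ApoE4 LPS over ApoE3 LPS the genes higher were 62 at 50 UMIs, 347 at 10 UMIs and 59 thinned, and the genes lower were 119 without mixed cells, 89, 521, 61 and 164 without each gene's top cell, an alternative chosen after seeing the data. In ApoE4 NaCl over ApoE3 NaCl the genes higher were 137 with no UMI of the exclusion genes, 202 with the median ratio set to 1, 18 at 50 UMIs, 211 at 10 UMIs and 34 thinned, and the genes lower were 399 without mixed cells, 258 with the median ratio set to 1, 469 at 50 UMIs and 185 thinned. Thinning and filters test fewer molecules by construction. The cause of the other shifts was not tested.

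Values that turned in direction included the ApoE3 median of complement genes, -0.0687 with cells thinned to 1000 UMIs, and the LPS ratio of Egr1 without mixed cells, 0.772 in ApoE4 and 0.294 in ApoE3. So did, without mixed cells, the ApoE3 ratio of Mt2 (0.768), and Pllp was left with 0 to 6 UMIs per library. Of the other single values, counted once per alternative, 416 moved beyond their counting interval and 1971 did not. With 299 to 553 cells per library, genes of low count have wide counting intervals, and 20 UMIs is a chosen limit.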
